A study of Mus musculus with 15 samples.

Results

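The 10 genes described here are immediate early genes: the AP-1 and bZIP transcription factor genes Jun, Junb, Jund, Fos, Fosb and Atf3, the zinc finger gene Egr1, Ier2, and the Krüppel-like factor genes Klf2 and Klf4. They were taken by name from the 32372 genes of the count matrix, and all 10 were among the 14260 genes that passed the filter on low counts in the summed libraries. Single-cell RNA sequencing was done on cells enriched with CD45 beads from the cortex and hippocampus of male C57BL/6J mice, after enzymatic tissue dissociation. The mice carry a transferrin receptor knock-in (hTfR KI), which the paper describes as a chimeric allele, mouse with a human apical domain. Mice were 3.5 months old, and each was dosed once at 10 mg/kg. ATV:4D9 targets TREM2, a lipid-sensing receptor of microglia, and is carried by a transport vehicle that binds the transferrin receptor. ATV:RSV carries the control antibody instead. There were 5 groups of 3 mice: ATV:4D9 at 1, 7, 14 and 28 days after the dose and ATV:RSV at 1 day. Every group carried the knock-in, the only control time was 1 day, and each of the 3 batches held all 5 groups, so every comparison with ATV:RSV used the same 3 control mice. At days 7 to 28, treatment and time since the dose cannot be told apart in those comparisons.

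Immediate early genes are switched on within minutes of a stimulus without new protein synthesis, through kinase cascades that act on factors already bound at their promoters. JUN and FOS family proteins pair to form AP-1, EGR1 binds GC-rich sites, and KLF2 and KLF4 act in the quiescence and polarization of myeloid cells. Handling and enzymatic dissociation of brain tissue are also known to induce these genes in microglia. No library of undissociated tissue was analysed here, so the part of dissociation in the levels below was not tested.

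The 15 libraries held 5667 to 7596 cells and 32341960 to 70307384 UMIs per mouse. Cells of ATV:4D9 day 1 were deeper, with a median of 8201.5 to 8995.5 UMIs per cell against 4975 to 5750 in ATV:RSV and 4694 to 6117 at days 7 to 28. Their median share of mitochondrial UMIs was 3.96 to 4.50%, against 3.11 to 3.38% in ATV:RSV. Most cells of day 1 were assigned by the authors to cluster 2 (18416 of 20459), where ATV:RSV had 339 of 20301. The summed level of 8 microglia markers was 13894 to 15475 counts per 1000000 UMIs (CPM, here without further scaling) at day 1 and 20647 to 22152 in ATV:RSV, with P2ry12, a homeostatic microglia receptor gene, at 712 to 799 and 2149 to 2184 CPM, so the microglia label held in every mouse at a lower level on day 1. Cells with at least 3 markers of another cell type were few in both groups (87 to 97 in a day 1 library, 40 to 62 in a control library). Summed markers of red blood cells reached 387 CPM and those of the choroid plexus 236 CPM in an ATV:RSV mouse, and every other non-microglial list was at or below 65.2 CPM in both groups. Monocyte markers were nonetheless higher in every day 1 mouse (13.9 to 18.0 CPM against 4.51 to 11.5), and cells with 3 markers of border-associated macrophages numbered 60, 75 and 74 at day 1 and 27, 24 and 15 in ATV:RSV. These cells were counted without matching depth, and 3 markers are found more easily in the deeper day 1 cells. The summed macrophage markers overlapped, at 18.0 to 26.0 CPM at day 1 and 17.2 to 20.6 CPM in ATV:RSV. Without the cells that held markers of another type, 8 members were again called at day 1, as were 69.8% of all genes. Of 100747 distinct cell barcodes, 1283 (1.27%) occurred in more than 1 library.

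The promoters of Fos, Fosb, Klf2 and Klf4 are shown because Fos holds a TATA box and Fosb, Klf2 and Klf4 each hold a site of the kind that the member EGR1 binds. Each is a window of 300 bases, from 250 before to 50 after the annotated start, from RefSeq on GRCm38.p6, and capitals mark the TATA box or EGR site. They lie at chr12:85473640-85473939 on the plus strand (Fos), chr7:19309996-19310295 on the minus strand (Fosb), chr8:72318812-72319111 on the plus strand (Klf2) and chr4:55532426-55532725 on the minus strand (Klf4).
Fos: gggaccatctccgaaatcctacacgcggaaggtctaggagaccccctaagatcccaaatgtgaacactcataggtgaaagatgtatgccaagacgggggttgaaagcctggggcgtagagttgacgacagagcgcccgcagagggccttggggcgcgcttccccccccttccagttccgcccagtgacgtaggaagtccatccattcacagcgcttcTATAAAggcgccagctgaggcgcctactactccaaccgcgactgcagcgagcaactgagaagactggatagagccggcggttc
Fosb: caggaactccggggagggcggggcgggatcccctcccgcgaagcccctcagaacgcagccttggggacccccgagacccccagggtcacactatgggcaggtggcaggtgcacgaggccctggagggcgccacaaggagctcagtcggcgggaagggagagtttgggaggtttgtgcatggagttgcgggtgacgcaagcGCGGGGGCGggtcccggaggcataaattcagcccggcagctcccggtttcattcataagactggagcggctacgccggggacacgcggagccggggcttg
Klf2: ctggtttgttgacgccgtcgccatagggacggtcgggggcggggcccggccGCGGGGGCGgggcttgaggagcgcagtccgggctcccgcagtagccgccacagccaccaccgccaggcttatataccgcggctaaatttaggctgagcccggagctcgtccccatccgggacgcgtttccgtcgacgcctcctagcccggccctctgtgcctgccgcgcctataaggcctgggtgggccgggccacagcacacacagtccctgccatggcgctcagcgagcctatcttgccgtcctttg
Klf4: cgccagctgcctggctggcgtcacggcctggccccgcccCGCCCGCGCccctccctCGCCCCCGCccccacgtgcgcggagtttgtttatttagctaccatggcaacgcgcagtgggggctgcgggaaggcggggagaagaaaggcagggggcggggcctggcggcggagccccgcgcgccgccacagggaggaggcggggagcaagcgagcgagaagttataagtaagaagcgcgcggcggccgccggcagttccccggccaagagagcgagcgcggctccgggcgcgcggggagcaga

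RefSeq promoters were matched for 8 of the 10 members, with Egr1 and Ier2 unmatched. The RefSeq windows of Jund and Atf3 lie away from the outermost start of these genes in GENCODE M21, so they may not cover the start in use. The EGR site, searched as GCGNGGGCG on both strands, was present in 3 of the 8 (Fosb, Klf2 and Klf4) and in 5.55% of all 32851 promoter windows of this length. The TATA box TATAAA was present in 2 (Fos and Junb) and in 13.6% of all windows. The GC box GGGCGG, which can overlap an EGR site because both hold GGGCG, was found in 6 (35.7% of all windows), and the CACCC box CCACCC, bound by Krüppel-like factors, in 4 (31.5%). The AP-1 site TGANTCA, the cAMP response element TGACGTCA and the CArG box were found in none of the 8, and in 7.81%, 1.79% and 1.63% of all windows. These are matches of letters in short windows, and elements farther from the start were outside the search.

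One day after ATV:4D9, 8 of the 10 genes were lower than in ATV:RSV in TMM-scaled counts, and none was higher. TMM scaling (trimmed mean of M values) adjusts library totals so that the bulk of genes is centred between libraries. The 8 were Jun, Junb, Jund, Fos, Fosb, Egr1, Klf2 and Klf4, by 0.45 to 1.37 on the log2 scale, and Atf3 and Ier2 did not pass the test. Across all 14260 genes tested, 34.6% were called lower and 34.7% higher (limma-voom, Benjamini-Hochberg adjusted p under 0.05)  and 69.2% in either direction. The median log2 fold change was -0.60 over the members and -0.05 over all genes. In the levels below, CPM values are given per mouse in the order of batches 1, 2 and 3, from the summed UMIs of each mouse after TMM scaling, so they differ from plain shares of a library's UMIs. In such sums, fewer expressing cells and less RNA per cell cannot be told apart.

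Jun, the core subunit of AP-1, was at 5199, 5756 and 5034 CPM in ATV:RSV and at 2789, 3143 and 2741 CPM in ATV:4D9 day 1. The highest day 1 mouse was far below the lowest control, and the log2 fold change was -0.88 ± 0.06 (SE; adjusted p = 5.06e-09). Jund, the JUN family member that is active in resting cells, was at 3446, 3557 and 3585 CPM in ATV:RSV and at 1723, 1903 and 1625 CPM at day 1. It had the smallest adjusted p of the 10 (log2 fold change -1.01 ± 0.06, adjusted p = 6.09e-10), and its groups did not overlap. Junb, which can oppose JUN at AP-1 sites, was at 3790, 4013 and 3669 CPM against 2659, 2821 and 2934 CPM. Its groups were also separate, with a smaller change of -0.45 ± 0.06 (adjusted p = 8.86e-06).

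Fos, the partner of JUN in the classical AP-1 dimer, was at 3628, 3500 and 3318 CPM in ATV:RSV and at 2279, 2708 and 2265 CPM at day 1. Every day 1 mouse was below every control (log2 fold change -0.53 ± 0.08, adjusted p = 2.43e-05). Fosb, whose product also dimerizes with JUN proteins, was at 504, 482 and 391 CPM against 252, 313 and 200 CPM, again without overlap (-0.86 ± 0.20, adjusted p = 0.0012). Atf3, a stress-induced bZIP factor that represses inflammatory genes, was at 1532, 1374 and 1307 CPM in ATV:RSV and at 1121, 1498 and 1358 CPM at day 1. The Atf3 groups overlapped, the change was -0.09 ± 0.12 (adjusted p = 0.495), and within batches it was lower in 1 of 3.

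Egr1 was at 1966, 2240 and 1839 CPM in ATV:RSV and at 1174, 1429 and 1366 CPM at day 1. All 3 day 1 mice were below all 3 controls (-0.61 ± 0.10, adjusted p = 4.42e-05). Ier2, a short early response protein, was at 1150, 1585 and 1257 CPM against 1012, 1149 and 1193 CPM. Its groups overlapped by 1 control mouse and the change of -0.24 ± 0.11 did not pass the test (adjusted p = 0.0588), although it was lower in 3 of 3 batches and passed with batch as a block (adjusted p = 0.0305). Leaving out replicate 1 of ATV:RSV gave -0.34 for Ier2 (adjusted p = 0.0139).

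Klf4 had the largest change of the 10 and the lowest counts. It was at 165, 149 and 152 CPM in ATV:RSV and at 55.8, 72.3 and 53.5 CPM at day 1, without overlap (-1.37 ± 0.24, adjusted p = 0.000108). Klf2, a shear- and statin-responsive factor best known in endothelium and quiescent lymphocytes, was at 745, 580 and 431 CPM against 347, 459 and 348 CPM. Its groups overlapped and the call was narrow (-0.58 ± 0.24, adjusted p = 0.0421). The Klf2 call was also lost with DESeq2 (adjusted p = 0.068), in thinned cells (0.12), with no filter on low counts (0.0688), without cells over 5% mitochondrial UMIs (0.0569) and without the 5% of cells with most UMIs (0.0511). The adjusted p for Klf2 was over 0.05 without replicate 1 (0.12) or 3 (0.117) of ATV:4D9 day 1 and without replicate 1 (0.189) or 2 (0.0862) of ATV:RSV. Cells without Mki67 and Top2a UMIs, markers of dividing cells that marked 1398 to 2015 cells per day 1 mouse and 27 to 48 per control mouse, gave -0.49 for Klf2 (adjusted p = 0.0796). The summed level of 6 endothelial markers was 12.1 to 17.3 CPM at day 1 and 20.6 to 27.2 CPM in ATV:RSV, with none at 0. Pecam1, which myeloid cells also express, was at 5.86 to 7.13 and 16.1 to 20.7 CPM, while Cldn5 was at 0.487 to 2.26 and 0.616 to 2.71 CPM. When cells with markers of another type were left out, the Klf4 change was -1.36 and the Klf2 change -0.57. The other 7 calls at day 1 were made in every one of the fits named for Klf2. For 7 of the 10 genes (all but Atf3, Ier2 and Klf2) the day 1 mice lay wholly below the controls, against 35.9% of all genes tested.

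**Figure D1:**
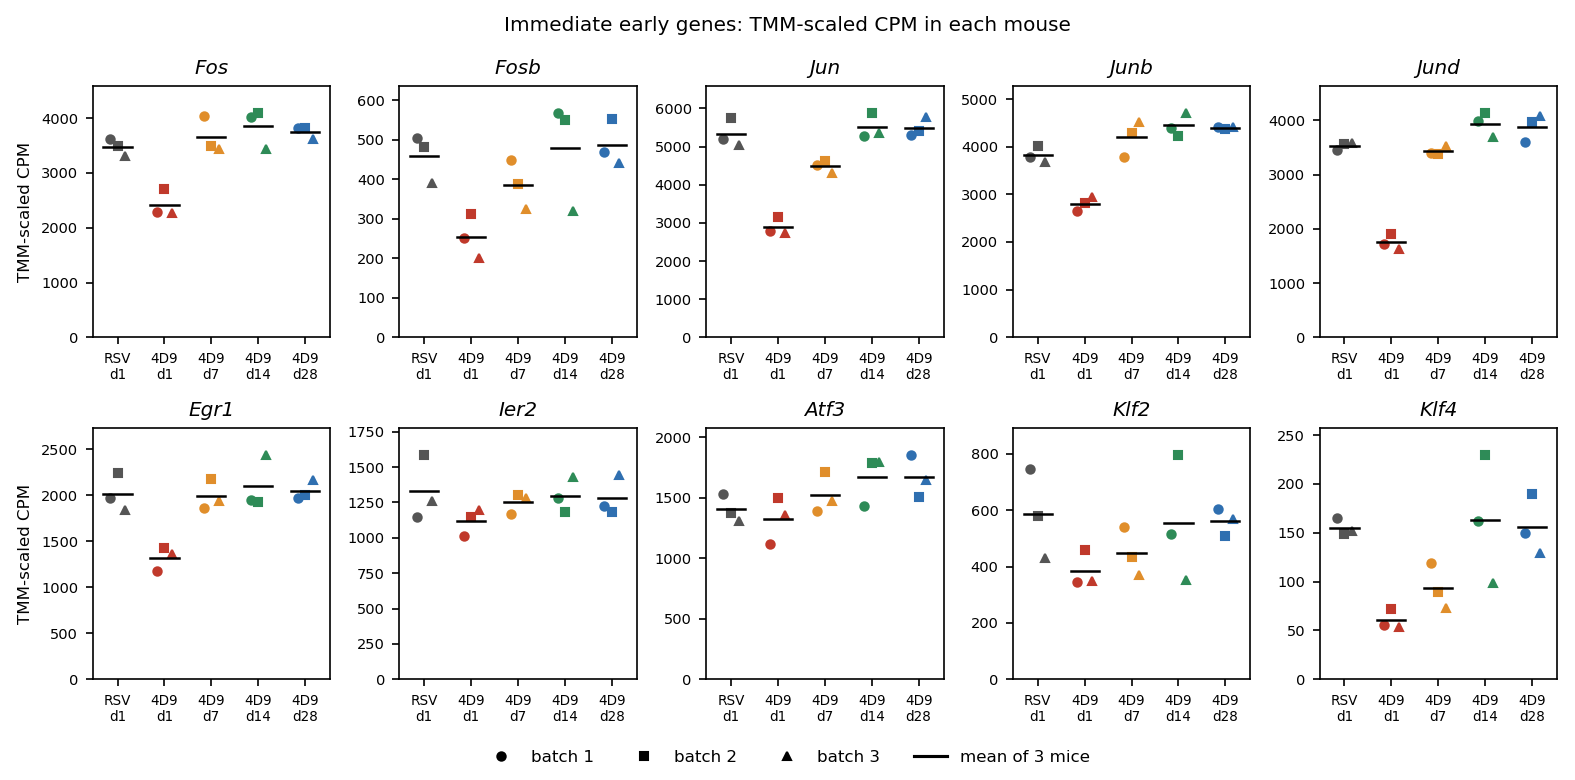
CPM of each of the 10 genes (y axes, TMM-scaled CPM) in the 5 groups of 3 mice (x axis), with points coloured by group, shaped by batch and a line at the mean. Jun, Jund, Fos, Junb, Egr1, Fosb and Klf4 sit lower in all 3 ATV:4D9 day 1 mice than in all 3 ATV:RSV mice, and Atf3, Ier2 and Klf2 overlap. Scaled to the number of cells, which the plot does not show, the day 1 change was above 0 for Atf3 (called) and Ier2 (not called).

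The size of the change depended on what a level was set against, because day 1 cells held more UMIs. The mean was 9329 UMIs per cell at day 1 and 6154 in ATV:RSV, a ratio of 1.52, and a library scaled to its number of cells showed a median change over all genes of 0.32 on the log2 scale. On that scale, tried after seeing the data, Jun (-0.52, adjusted p = 9.94e-06), Jund (-0.65, adjusted p = 5.91e-06), Klf4 (-1.01, adjusted p = 0.000729), Fosb (-0.50, adjusted p = 0.0365) and Egr1 (-0.25, adjusted p = 0.0249) were still called lower. The background there was 13.4% of genes lower and 49.3% higher. Fos (-0.17, adjusted p = 0.174), Junb (-0.09, adjusted p = 0.425) and Klf2 (-0.22, adjusted p = 0.41) did not pass. Atf3 turned to 0.27 and was called higher (adjusted p = 0.0425), and Ier2 turned to 0.12 without passing (adjusted p = 0.294). As plain shares of library size the values moved the other way: all 10 genes were called lower, Atf3 by 0.33 (adjusted p = 0.0191) and Ier2 by 0.48 (adjusted p = 0.000915), with a background of 48.8% of genes lower, 25.9% higher and 74.7% in either direction and a median of -0.29 over all genes. The Atf3 and Ier2 results at day 1 thus depended on the scaling.

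**Figure D2:**
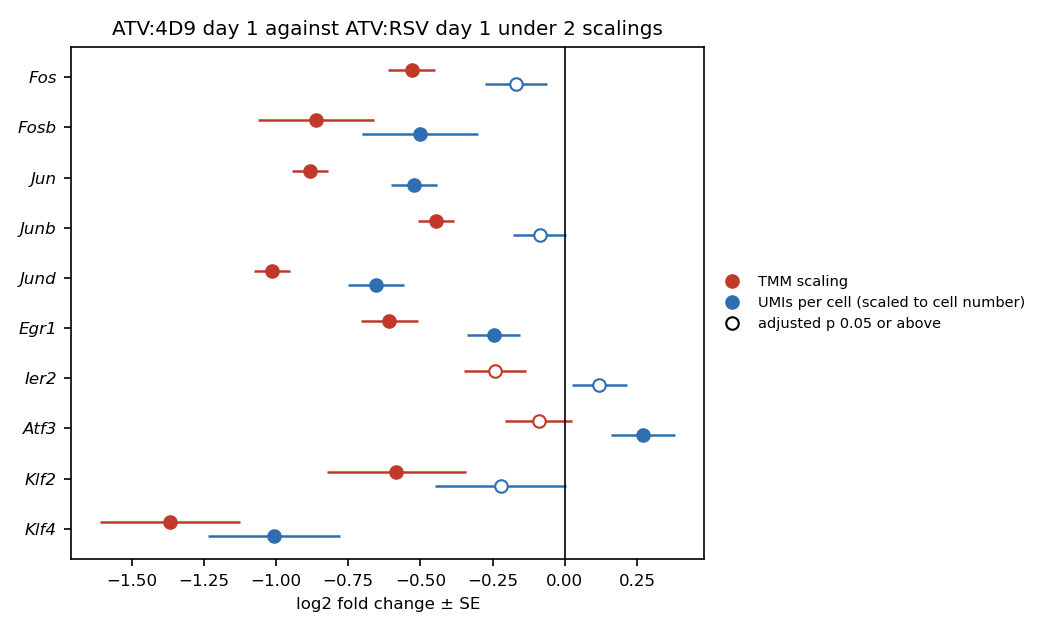
Log2 fold change of ATV:4D9 day 1 against ATV:RSV (x axis, bars are SE) for the 10 genes (y axis), with TMM scaling (red) and scaled to the number of cells (blue), with hollow points where the adjusted p was 0.05 or more. Jun, Jund, Klf4, Fosb and Egr1 are filled and below 0 on both scales, and Atf3 and Ier2 change sign between them.

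In UMIs per cell, Jun was at 36.2, 35.1 and 32.5 in the ATV:RSV mice and at 24.9, 26.2 and 21.4 at day 1. Jund was at 24.0, 21.7 and 23.2 against 15.4, 15.9 and 12.7 UMIs per cell. Klf4 was at 1.15, 0.909 and 0.980 against 0.499, 0.602 and 0.417. Of the 10 genes, these 3 lay wholly below the controls in UMIs per cell (14.7% of all genes did), and none lay wholly above them, where 49.4% of all genes did. Atf3 was at 9.17 ± 1.30 (SD, n = 3) UMIs per cell in ATV:RSV and 11.0 ± 1.29 at day 1, in groups that overlapped.

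To compare cells at 1 depth, each cell was thinned to 3385 UMIs, which left out 10204 shallower cells (8.69 to 17.8% of each ATV:RSV library and 3.93 to 5.79% of each day 1 library). The share of thinned cells with a Klf4 UMI was 25.9, 26.1 and 24.7% in ATV:RSV and 10.8, 14.2 and 11.0% at day 1. The share with Fosb was 55.0, 58.2 and 46.8% against 34.0, 42.3 and 30.9%. Both were lower in every day 1 mouse, as were Jun, at 91.9, 96.6 and 90.7% against 84.5, 88.8 and 85.9%, and Jund, at 93.3, 96.8 and 94.2% against 82.2, 87.4 and 84.1%. These 4 were the members without overlap in that share, against 43.7% of all genes. Without thinning the shares were 32.2 ± 2.02% (SD, n = 3) and 21.7 ± 2.66% for Klf4 and 57.3 ± 5.10% and 51.4 ± 6.25% for Fosb. No cell type in these libraries is known to lack these genes, so the part of free RNA in the shares was not tested.

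Jun, Jund, Junb and Fos were found in most cells of both groups, so at matched depth their counts per cell moved more than their shares of cells. Thinning gives every cell the same total, so such counts are shares of a cell's UMIs. No share of all genes is given for them. Without thinning, Fos was at 25.3, 21.4 and 21.4 UMIs per cell in ATV:RSV and 20.4, 22.6 and 17.7 at day 1. Junb was at 26.4, 24.5 and 23.7 against 23.8, 23.5 and 22.9. For both genes the groups overlapped. At 3385 UMIs per cell, Jun was at 19.0 ± 1.81 UMIs per cell in ATV:RSV and 9.18 ± 0.906 at day 1 (SD, n = 3). Jund was at 12.6 ± 0.502 and 5.64 ± 0.528, and Fos at 12.3 ± 0.685 and 7.46 ± 0.942. The 10 genes together gave 75.8, 84.9 and 73.5 UMIs per thinned cell in ATV:RSV and 41.2, 49.4 and 43.4 at day 1, groups that did not overlap. The number of members found per thinned cell was 6.93, 7.40 and 6.53 against 5.91, 6.65 and 6.27, groups that did overlap. With 3 mice against 3, an exact two-sided permutation test cannot go below p = 0.1, and no p is given for such sums.

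**Figure D3:**
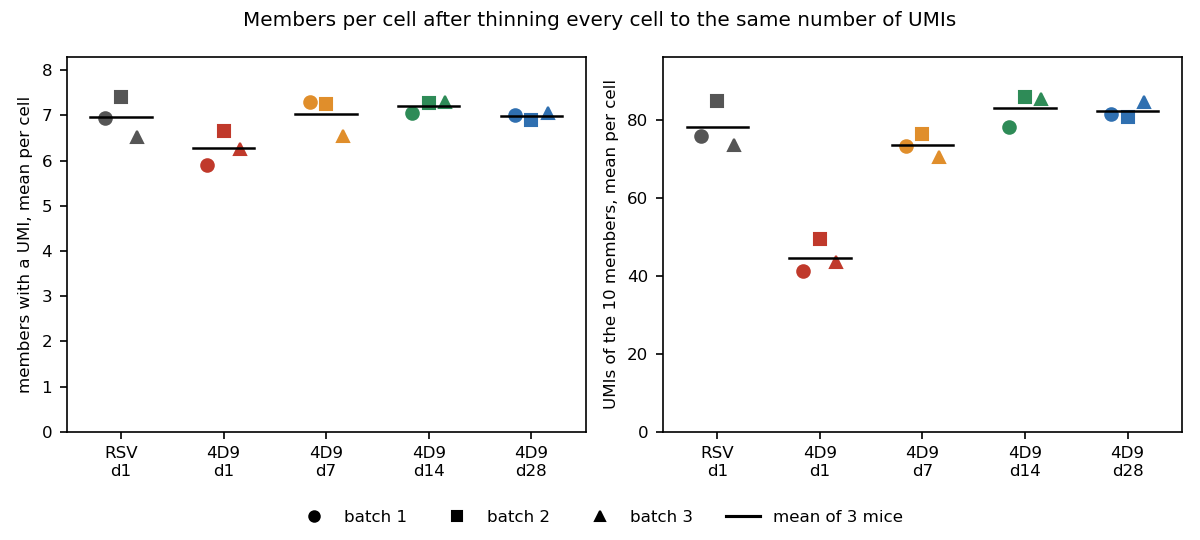
Mean number of the 10 genes found per cell (left, y axis) and mean summed UMIs of the 10 genes per cell (right, y axis) after thinning to 3385 UMIs per cell, by group (x axis), with points coloured by group, shaped by batch and a line at the mean of 3 mice. The summed UMIs are 41.2 to 49.4 at ATV:4D9 day 1 and 73.5 to 84.9 in ATV:RSV, while the number of genes found overlaps. Every thinned cell has the same total, so the sums are shares of a cell's UMIs.

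Members were found together in the thinned cells. In ATV:RSV, 86.8 to 91.4% of cells with Fos held Egr1, against 19.7 to 34.2% of cells without Fos. The day 1 values were close, at 84.4 to 88.6% and 24.3 to 28.6%. The share of Fos cells that held Fosb was 60.1 to 66.2% in ATV:RSV and 38.4 to 50.3% at day 1. Cells without Fos held Fosb in 7.01 to 12.3% and 4.35 to 6.28% of cases. No value for pairs of other genes is given here, so these shares are a description only. The clusters also differed: in ATV:RSV a mean of 98.7% of cluster 0 cells held Fos and 98.0% Egr1. In cluster 1 the means were 48.8% and 38.0%. The part of the clusters in the shares above was not tested.

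The authors' 3 clusters differed in these genes. In ATV:RSV, Fos averaged 4937 CPM in cluster 0, 758 in cluster 1 and 3008 in cluster 2, and Egr1 2870, 368 and 1988. Jun averaged 6974, 2471 and 4066 CPM, and Klf4 217, 41.7 and 117. Cluster 0 was the highest and cluster 1 the lowest for each of the 10 genes, which is a description only, since the clusters were made from the genes of the same cells and the members may be among them. Cluster 0 held 56.0% of ATV:RSV cells and 4.62% of day 1 cells, cluster 1 held 42.4% and 5.37%, and cluster 2 held 1.67% and 90.0%. The comparisons within clusters below carry the same limit, and in cluster 2 they rest on 76 to 165 cells per ATV:RSV mouse.

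Within cluster 2, 9 of the 10 genes were lower at day 1, where 19.3% of 8511 genes were called lower, 17.5% higher and 36.8% in either direction. Jund was at 2956, 2450.0 and 2816 CPM in ATV:RSV and 1544, 1669 and 1448 CPM at day 1 (log2 fold change -0.82 ± 0.08, adjusted p = 9.42e-07). Egr1 fell by 0.73 on the log2 scale (adjusted p = 9.42e-07) and Jun by 0.66 (adjusted p = 2.56e-06). Klf2 was at 1016, 566 and 509 CPM against 295, 389 and 302 CPM and fell by 1.06 (adjusted p = 0.000903), with no overlap. Klf4 fell by 1.22 ± 0.35 (adjusted p = 0.0111), although its controls ranged from 69.1 to 174 CPM. Without replicate 1 of ATV:RSV the Klf4 value was -0.78 (adjusted p = 0.26), the calls for Fos (adjusted p = 0.0808) and Fosb (adjusted p = 0.099) were lost too. Without replicate 2 of ATV:RSV the Ier2 call was lost (-0.25, adjusted p = 0.0792). Atf3 alone did not pass (-0.33, adjusted p = 0.0638), and passed with batch as a block (adjusted p = 0.0476), where 41.0% of genes were called.

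Within cluster 1, 3 of the 10 were lower (2.83% of 11989 genes were called lower, 6.36% higher and 9.18% in either direction). Jund was at 1750, 2017 and 1763 CPM against 1016, 1231 and 931 CPM (-0.79 ± 0.11, adjusted p = 5.37e-05). Jun was at 2258, 3088 and 2067 CPM against 1289, 1864 and 1297 CPM (-0.73 ± 0.15, adjusted p = 0.00422). Fos was at 764, 964 and 545 CPM against 459, 468 and 263 CPM (-0.83 ± 0.23, adjusted p = 0.024). The Fos call was lost without any 1 of the day 1 mice and without replicate 1 or 2 of ATV:RSV (adjusted p 0.0546 to 0.0802). The count of 3 called genes ranged from 1, without replicate 1 of ATV:4D9 day 1, to 5, without replicate 3 of ATV:RSV. With batch as a block it was 5, with Junb (adjusted p = 0.0219) and Klf4 (adjusted p = 0.0324) added, and 1804 of 11989 genes (15%) were called.

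Within cluster 0, which held 211 to 383 cells per day 1 mouse, none of the 10 passed (limma-voom), where 1.32% of 13329 genes were called lower, 3.77% higher and 5.09% in either direction. At an unadjusted p under 0.05 there were 3, namely Jun, Atf3 and Klf2. The shares of all genes, here and beside the later unadjusted counts, are at the adjusted threshold. They are therefore no background for these counts. Jun was at 6952, 7066 and 6904 CPM in ATV:RSV and 6407, 6715 and 6357 CPM at day 1, a change of -0.10 (adjusted p = 0.249) with separate groups. Klf2 was at 1041, 730.1 and 622 CPM against 1332, 1532 and 1361 CPM, so every day 1 mouse was higher there, opposite to cluster 2 (0.85 ± 0.26, adjusted p = 0.0771, and 0.0283 with batch as a block, where 8.92% of genes were called). Atf3 was at 2205, 1833 and 1972 CPM against 2273, 2679 and 2643 CPM (0.33 ± 0.11, adjusted p = 0.096). Whether the changes differed between clusters was not tested.

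**Figure D4:**
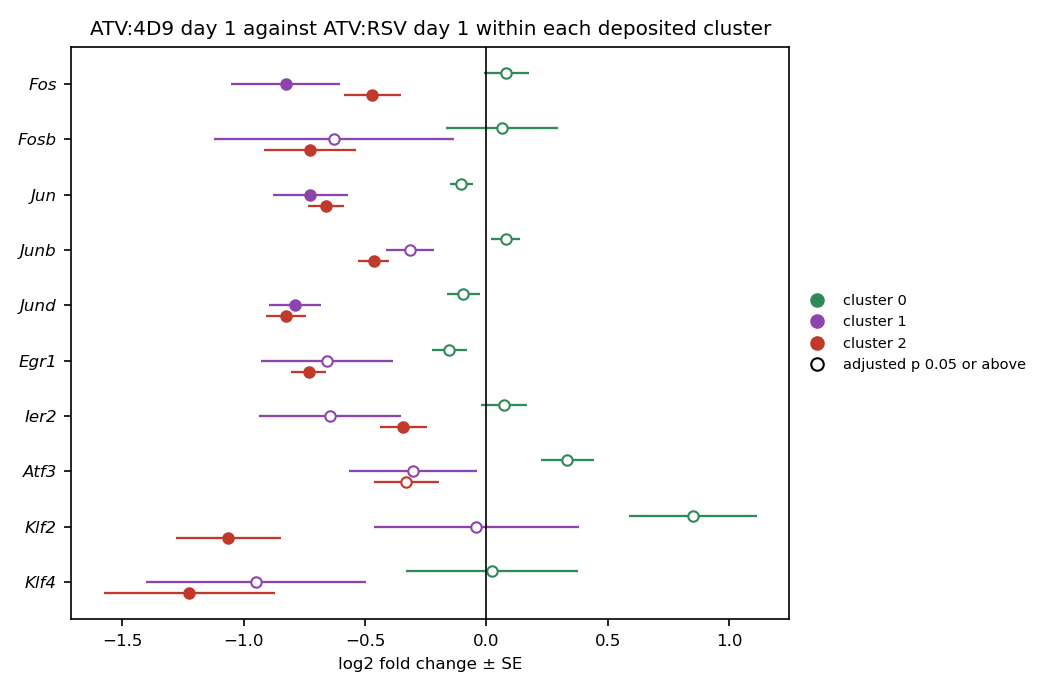
Log2 fold change of ATV:4D9 day 1 against ATV:RSV (x axis, bars are SE) for the 10 genes (y axis) within the authors' clusters 0 (green), 1 (purple) and 2 (red), with hollow points where the adjusted p was 0.05 or more. In cluster 2, 9 genes are filled and below 0, in cluster 1 only Fos, Jun and Jund are, and in cluster 0 none is.

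By day 7, 1 of the 10 genes was lower than in ATV:RSV and none was higher. It was Jun, at 4511, 4633 and 4320 CPM against 5199, 5756 and 5034 CPM in ATV:RSV, with every day 7 mouse below every control (-0.25 ± 0.06, adjusted p = 0.0408). The background was 0.996% of genes called lower, 2.99% higher and 3.98% in either direction. The call was lost without any 1 of the 3 day 7 mice or without replicate 1 or 2 of ATV:RSV, and after thinning (-0.20, adjusted p = 0.208). Klf4 was at 119, 89.2 and 72.5 CPM, all below the controls, without passing (-0.76, adjusted p = 0.0983), and passed with batch as a block (adjusted p = 0.0188), where 7.11% of genes were called. Jun and Klf4 were the 2 members without overlap in this direction, against 10.2% of all genes. In thinned cells Klf4 was found in 21.5, 17.7 and 14.3% of cells at day 7, the only member wholly below ATV:RSV in that share (24.9% of all genes were). Jund was back at 3406, 3373 and 3532 CPM, a change of -0.04 (adjusted p = 0.813).

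Against day 1, 7 of the 10 were higher at day 7 (33.0% of all genes were called higher, 33.9% lower and 66.9% in either direction): Jund by 0.98 on the log2 scale (adjusted p = 1.11e-09), Jun by 0.64, Fosb by 0.61, Fos and Klf4 by 0.60, Egr1 by 0.59 and Junb by 0.58. The Klf4 call (adjusted p = 0.0404) was lost in thinned cells (0.0546), with no filter (0.0957), without the 5% of cells with most UMIs (0.0553) and without replicate 1 or 3 of day 1 or 1 or 2 of day 7 (0.0702 to 0.189), and the Fosb call without replicate 3 of day 1 (0.0815) or 1 of day 7 (0.0663). With library size alone 9 were higher (41.4% of all genes higher, 27.8% lower and 69.3% in either direction). The same 7 genes had separate groups in CPM, against 34.8% of all genes in this direction, and 5 of them (Fosb, Jun, Junb, Jund and Klf4) had separate shares of thinned cells with a UMI, against 35.1%. Scaled to the number of cells, where the median of all genes was -0.44 and 8.93% of genes were called higher and 54.3% lower, Jund alone was called higher (0.51, adjusted p = 0.000101), and Ier2 (-0.30, adjusted p = 0.0102) and Atf3 (-0.26, adjusted p = 0.0496) were lower. Klf2 was 0.21 with TMM scaling and -0.25 per cell, and passed on neither scale. Within clusters, day 7 against ATV:RSV gave Jun lower in cluster 0 (-0.29 ± 0.04, adjusted p = 0.00043; 1.19% of genes called lower, 3.08% higher and 4.28% in either direction) and Junb higher in cluster 1 (0.45 ± 0.09, adjusted p = 0.00192; 4.12% called higher, 1.63% lower and 5.76% in either direction). With batch as a block, cluster 1 also gave Fos higher (0.58, adjusted p = 0.000336) and Klf2 (-0.83, adjusted p = 0.0289) and Klf4 (-0.59, adjusted p = 0.00868) lower, with 8.21% of genes called, and cluster 0 gave Klf4 lower (-0.80, adjusted p = 0.0282), with 6.48% called. In cluster 2 none passed (0.693% of genes called, 0.482% higher and 0.211% lower), with Jun and Klf2 at an unadjusted p under 0.05.

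At days 14 and 28 none of the 10 passed the test against ATV:RSV in limma-voom, edgeR or DESeq2. At day 14 limma-voom called 0.386% of all genes higher, 0.014% lower and 0.4% in either direction, and at day 28 it called 0.0%. At an unadjusted p under 0.05 there were 2 and 3 members, a looser threshold at which no share of all genes is given. Junb was at 4396, 4233 and 4708 CPM at day 14 and 4404, 4368 and 4404 CPM at day 28, above the 3669 to 4013 CPM of ATV:RSV in every mouse (0.22 and 0.20). Jund was at 3980, 4136 and 3687 CPM and then 3596, 3971 and 4077 CPM, also above its controls (0.16 and 0.14). Junb and Jund were the members without overlap at both times, against 5.29% of genes in this direction at day 14 and 4.59% at day 28. Within cluster 1, Junb was called higher at day 14, at 2546, 2290.0 and 2725 CPM against 1733, 2136 and 1572 CPM (0.49 ± 0.08, adjusted p = 0.00272; 1.13% of genes called higher, 0.0417% lower and 1.18% in either direction). With batch as a block, Fos (0.51, adjusted p = 0.00384) and Jund (0.32, adjusted p = 0.0104) were called there too, with 1.67% of genes called. No member was called in clusters 0 and 2 at day 14 (0.113% of genes called in cluster 0, 0.105% higher and 0.0075% lower, and 0.0% in cluster 2, with 1 and 3 members at an unadjusted p under 0.05) or in any cluster at day 28 (0.0%, with 2, 2 and 3). With batch as a block none was called in cluster 0 at day 14 or 28 either (0.765% and 0.015% of genes called).

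From day 7 to day 14 Jun was the only member called, higher by 0.29 ± 0.06 on the log2 scale (adjusted p = 0.0403; 0.0561% of genes called higher, 0.856% lower and 0.912% in either direction), with day 14 at 5275, 5883 and 5362 CPM. The call was lost without any 1 mouse of day 7 or of day 14 (adjusted p 0.0675 to 0.221). From day 14 to day 28 no member was called (limma-voom, edgeR and DESeq2; none at an unadjusted p under 0.05), and the changes lay between -0.04 and 0.09. Over all 5 groups, 7 of the 10 differed (66.5% of all genes did), with Atf3 (adjusted p = 0.0562), Klf2 (0.166) and Ier2 (0.286) short of the threshold.

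**Figure D5:**
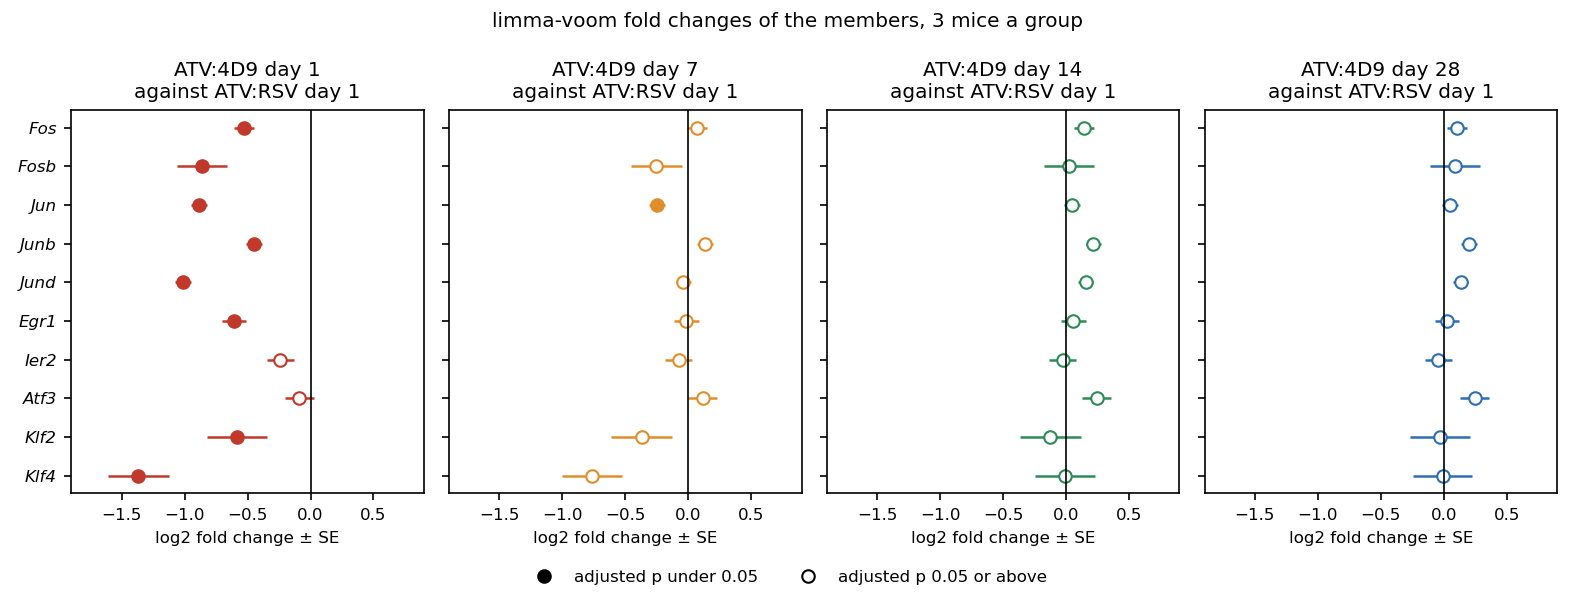
Log2 fold change against ATV:RSV (x axes, bars are SE) for the 10 genes (y axes) at days 1, 7, 14 and 28 after ATV:4D9, with filled points where the adjusted p was under 0.05. 8 filled points lie below 0 at day 1, Jun is the only one at day 7, and none is filled later. Scaled to the number of cells, the changes of Atf3 and Ier2 were above 0 at day 1.

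In order of group means, ATV:4D9 day 1 was the lowest of the 5 groups for all 10 genes in CPM. Above it the order was close for Fos and Egr1. For Fos the means ran from 3482 ± 156 CPM (SD, n = 3) in ATV:RSV through 3659 ± 332 at day 7 and 3746 ± 116 at day 28 to 3851 ± 361 at day 14, with each step smaller than the larger SD of its pair. For Egr1 the 4 means lay between 1991 ± 162 and 2104 ± 290 CPM. For Klf4 day 7 was intermediate, at 93.5 ± 23.5 CPM between 60.5 ± 10.2 at day 1 and 155 ± 8.42 in ATV:RSV. Jun was also intermediate at day 7, at 4511, 4633 and 4320 CPM. These lay above every day 1 mouse and below every mouse of ATV:RSV, day 14 and day 28. Both Krüppel-like factors varied widely among the day 14 mice, with Klf2 at 517, 796 and 351 CPM and Klf4 at 162, 230 and 99.1.

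Across the 15 mice, the log2 level of each member was scaled to the same mean and spread, and the 10 were averaged. That mean was followed most closely by Jun (r = 0.98), Jund (0.96) and Fos (0.94), and least by Ier2 (0.57). Each member is part of that mean, which raises its r. Outside the members, Jmjd1c, Cblb, Usf3 and Ccdc152 (each r = 0.97) and Mpp5 (0.96) were the most alike. These values include the step between day 1 and the other groups. After the group means were taken away the 5 most alike were Rev3l (0.92), Stx19 (0.90), Ctnnal1 (0.88), Glis2 (0.87) and Paxbp1 (0.86), none of which was in the first 5. Among the 45 pairs of members, 26 had a correlation above 0 in those deviations, with a median of 0.33 and a range from -0.67 to 0.89. The mice share the same 5 groups and libraries, and these correlations are descriptions.

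At day 1, with 34.7% of all genes called higher, 34.6% lower and 69.2% in either direction, the lists of related genes below are read against those shares and given as descriptions. Of 12 measured AP-1 and bZIP genes besides the members, 3 were higher and 6 lower, with a median of -0.38. Maff, a small MAF protein gene, was at 24.0 ± 3.53 CPM (SD, n = 3) against 5.76 ± 1.11 in ATV:RSV (2.05 ± 0.21, adjusted p = 2.59e-07). Of 5 genes of other EGR factors and their co-repressors, Egr2 was lower (-1.04, adjusted p = 0.000652), and Nab1 (0.95, adjusted p = 2.68e-09) and Nab2 (0.42, adjusted p = 0.00146), which restrain EGR proteins, were higher. Of 11 measured Krüppel-like factors besides the members, 5 were lower, among them Klf9 (-1.76, adjusted p = 4.43e-08), a glucocorticoid-responsive gene, and 1 was higher, Klf10 (1.51, adjusted p = 3.84e-10), a gene induced by TGF-beta, at 81.0 ± 3.50 against 28.5 ± 3.48 CPM.

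Of 33 other early response genes, 10 were higher and 12 lower at day 1, close to the shares of all genes, with a median of -0.06. Dusp2, a phosphatase gene that turns off MAP kinases, was at 143 ± 34.4 CPM against 27.4 ± 4.52 (2.36, adjusted p = 1.32e-06), and the stress sensor gene Gadd45b was also higher (1.80, adjusted p = 6.05e-07). Zfp36l2 and Cebpd were lower (-1.08 and -1.07). At day 7, with 2.99% of all genes called higher and 0.996% lower, this was the only list with calls, 2 higher (Dusp2, 1.09, and Gadd45b, 0.82) and 3 lower (Gadd45g, -0.99, Myc, -0.63, and Cebpd, -0.46), and at days 14 and 28 no list had any.

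Upstream of the members, and against the same day 1 shares of all genes (34.6% lower, 34.7% higher), 7 of 11 measured genes of the SRF, TCF, MEF2 and CREB factors were lower at day 1, led by Mef2a (-0.998, adjusted p = 1.72e-10), and 2 were higher, the TCF genes Elk1 (0.35, adjusted p = 0.0495) and Elk3 (0.14, adjusted p = 0.0236). Of 19 genes of MAP kinase cascades, 12 were lower and 5 higher, with a median of -0.31. Of 12 heat shock genes, 8 were higher and none lower, with a median of 1.19, led by the mitochondrial chaperone genes Hspd1 (1.72, adjusted p = 1.58e-09) and Hspe1 (1.45, adjusted p = 2.25e-08). The summed heat shock level was 7537, 6857 and 8063 CPM at day 1, 4398, 2947 and 2543 in ATV:RSV and 2446 to 3843 in the other mice, so it moved with the group in which the members were lower. The part of stress during tissue handling in either was not tested. From day 1 to day 7, with 33.0% of all genes called higher and 33.9% lower, 6 other AP-1 and bZIP genes were higher and 3 lower, 1 gene of the EGR list was higher and 1 lower, and 5 other Krüppel-like factors were higher and 2 lower. Of the early response genes 15 were higher and 9 lower. Of the SRF, TCF, MEF2 and CREB genes 8 were higher and none lower, of the MAP kinase genes 12 were higher and 5 lower, and of the heat shock genes none was higher and 8 were lower.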

How the data were processed

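The deposited data were a matrix of raw UMI counts per gene and cell and a table of cells from the authors, with each cell's mouse, its cluster and its percent of mitochondrial UMIs. The submitters' processing notes name Cell Ranger 4.0.0 and mm10. Other Cell Ranger versions are named in the study's methods, so whether intronic reads were counted is not settled, and this would change the level of genes with unspliced RNA. Deposited cells had at least 500 genes and at most 10% mitochondrial UMIs. Of the 32372 genes, 9521 had no UMI. No doublet caller was run. As alternatives, cells that held at least 3 markers of another cell type were left out, and so were the top 5% of cells by UMIs.

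Counts were summed per mouse (102043 cells, 707518630 UMIs), filtered with filterByExpr (minimum count 10, minimum total 15), scaled with TMM (edgeR 4.0.16) and tested with limma-voom (limma 3.58.1, R 4.3.3) with all 5 groups in 1 fit and Benjamini-Hochberg adjustment over all genes tested. The p-values rest on the spread between mice of the same group, pooled over the 5 groups of 3 mice. edgeR's quasi-likelihood test, DESeq2 1.42.0, other scalings, no filter, batch as a block, thinned cells and leaving out each mouse were alternatives. Within clusters, sums of at least 50 cells per mouse were used. Cells were thinned to the 10th percentile of UMIs per cell. In simulated counts where a small share of genes changed, the tests gave back the median of the known changes. At day 1 most genes were called, so that simulation cannot speak for the day 1 calls.

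Per the labels each batch held all 5 conditions, so batch was the pairing. The correlation of deviations from group means averaged 0.0334 over 30 same-batch pairs and -0.0164 over 60 others. All 10 members are named, with the 5 genes most like their mean and, from each list of related genes, those with the largest changes in each direction. The values of 1 gene of the AP-1 and bZIP list are not reported here. The members, lists and related genes were chosen with earlier results of these data known. Promoter windows came from RefSeq on GRCm38.p6.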

Additional observations from a re-analysis of the deposited data

Results flagged for a closer look

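Several members differed between ATV:4D9 day 7 and ATV:4D9 day 1. ATV:RSV was taken only at day 1, so treatment and time since the dose cannot be told apart in this test. In that test 66.9% of all 14260 genes were called, 4703 higher and 4835 lower. The difference was 0.98 on the log2 scale for Jund, 0.64 for Jun, 0.61 for Fosb, 0.60 for Fos, 0.60 for Klf4, 0.59 for Egr1 and 0.58 for Junb, each higher at day 7 in 3 of 3 batches. The adjusted p in limma-voom was at most 0.0404, for Klf4, a call that was lost in thinned cells (0.0546), with no filter (0.0957), without the 5% of cells with most UMIs (0.0553) and without any 1 of 4 mice (0.0702 to 0.189). The Fosb call was lost without replicate 3 of day 1 (adjusted p = 0.0815) or replicate 1 of day 7 (0.0663). Scaled to the number of cells, Jund alone was called higher, and Ier2 (-0.30, adjusted p = 0.0102) and Atf3 (-0.26, adjusted p = 0.0496) were called lower. On that scale 63.2% of all genes were called, 1274 higher and 7741 lower. Jun also differed between ATV:4D9 day 14 and day 7, by 0.29 (adjusted p = 0.0403 in limma-voom), higher at day 14 in 3 of 3 batches. This call was lost without any 1 of the 6 mice (0.0675 to 0.221), and the same limit of treatment and time applies. Between those days 0.912% of all genes were called.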

How the results depend on the processing

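With batch as a block, the number of members called was 9 at day 1 and 10 at day 1 in cluster 2 (8 and 9 without the block; 72.1% and 41.0% of all genes), 2 at day 7 against ATV:RSV (1; 7.11%), 1 and 5 at day 1 in clusters 0 and 1 (0 and 3; 8.92% and 15% of all genes were called), 2 and 4 at day 7 in clusters 0 and 1 (1 and 1; 6.48% and 8.21%) and 3 at day 14 in cluster 1 (1; 1.67%). The 4 were 2 higher (Junb and Fos) and 2 lower (Klf2 and Klf4). At day 7 none was called after thinning (3.91% of all genes), without cells over 5% mitochondrial UMIs (3.77%) or without the 5% of cells with most UMIs (4.1%), and 2 were with library size alone (8.41%). With only the 2 groups compared in the fit, Jun was not called at day 7 (adjusted p = 0.0669) and Klf4 was lower (-0.76, adjusted p = 0.0236). In such a fit of day 7 against day 1, Ier2 was called higher (0.17, adjusted p = 0.0452). The share of all genes called in these fits is not given. Between day 14 and day 7 none was called after thinning (0.729%), without cells over 5% mitochondrial UMIs (0.478%) or when scaled to the number of cells (0.0771%). On the cell scale 3 were called at day 7 against day 1 (63.2%), and the sign turned for Atf3 at day 1 (0.27) and for Atf3 (-0.26) and Ier2 (-0.30) at day 7 against day 1. The cause of these differences was not tested.

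For shares of cells with a UMI at day 1, members with separate and lower groups numbered 4 with thinning (43.7% of all genes), 6 when thinned to the 25th percentile (42.7%), 2 without thinning (14.4%), 0 in cluster 0 alone (18.4%) and 3 in cluster 1 alone (15.6%), and members with higher ones 1 without thinning (49.2%) and 3 in cluster 0 alone (7.97%). In cluster 0 the day 1 difference turned to 0.0933 percentage points for Jund and 11.5 for Klf2. Without thinning 1, 4 and 1 members were higher at days 7, 14 and 28 (3.06%, 2.91% and 8.74% of all genes) and 1 was lower at day 7 (14.4%), and in cluster 1 alone 1 was higher (4.09%) and 0 lower (26.5%) at day 7.

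Leaving out 1 mouse at a time gave 7 to 8 members at day 1 (64.1 to 66.1% of all genes), 0 to 1 at day 7 (2.28 to 3.38%), 5 to 7 for day 7 against day 1 (61.6 to 63.9%) and 0 to 1 for day 14 against day 7 (0.214 to 0.56%). Within clusters it gave 0 to 1 (2.83 to 5.15%), 1 to 5 (4.65 to 8.45%) and 6 to 10 (20.5 to 36.6%) for clusters 0, 1 and 2 at day 1, and 1 to 3 at day 7 (3.53 to 4.75%) and 1 to 2 at day 14 (0.753 to 1.18%) in cluster 1.

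Over all genes, the 568 called at day 7 became 871 with DESeq2, 1199 with library size alone, 1014 with the block and 308 on the cell scale. The 57 at day 14 became 132, 19, 122 and 0 under the same settings, and 34 after thinning and 36 without cells over 5% mitochondrial UMIs. The 0 at day 28 became 14 with DESeq2 and 2 with the block. The 130 for day 14 against day 7 became 242 with DESeq2, 86 with library size alone, 66 without cells over 5% mitochondrial UMIs and 11 on the cell scale. For day 28 against day 14, 0 became 70 with DESeq2, 13 without a filter and 19 with the block. The share of calls that were higher was 50.1% at day 1 (34.7% with library size alone, 78.7% on the cell scale), 75.0% at day 7 (26.4% and 51.6%), 49.3% for day 7 against day 1 (59.8% and 14.1%) and 6.15% for day 14 against day 7 (17.4% and 18.2%).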
